A study of Mus musculus with 6 samples.

Results

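The genes described here encode the constitutive proteasome, the standing form of the protease that degrades ubiquitin-tagged proteins. They were taken by name: every non-control probe of the array whose gene name begins with Psma, Psmb, Psmc or Psmd and goes on with a number, apart from Psmb8, Psmb9 and Psmb10. This gave 54 of 41174 probes and 36 of 27745 gene names. The names were Psma1 to Psma8, Psmb1 to Psmb7, Psmc1 to Psmc6, Psmd1 to Psmd14 and Psmc3ip. Psmc3ip carries the prefix but encodes a protein of meiotic recombination, so it was kept out of all counts below, which leaves 35 genes. The thymic subunit gene Psmb11 stands on the array under an older clone name and was not caught by the name rule. All 36 genes had a probe above background on the 3 arrays of at least 1 group, and the brightest such probe stood for its gene.

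Both kidneys of 3 CD-1 mice, an outbred stock, were measured on 6 single-colour Agilent arrays, 1 kidney per array. The left ureter of each mouse (numbered 495, 485 and 512) had been tied completely, which is a model of renal fibrosis; the right kidney of the same animal was not ligated and served as the control. Each group thus holds 3 kidneys of the same 3 animals, and neither group carries a gene deletion, transgene or drug in the labels. The animals' age and the time from ligation to sampling are not given in the sources used here. The labels name the tissue as kidney but the cells as primary cells, and which of these was extracted is not settled by them.

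The core particle is a stack of rings. Its outer rings are built of alpha subunits, which form the gate, and its inner rings of beta subunits, of which Psmb6, Psmb7 and Psmb5 carry the caspase-like, trypsin-like and chymotrypsin-like activities. The regulatory particle caps the core: a ring of Psmc ATPases unfolds the substrate and threads it through the gate, base subunits bind ubiquitin or its shuttles, and the lid removes the ubiquitin chain. Under interferon signals, cells build Psmb9, Psmb10 and Psmb8 into new core particles in place of Psmb6, Psmb7 and Psmb5, which gives the immunoproteasome. Transcription of the constitutive genes is known to be raised together by Nfe2l1 (Nrf1) when proteasome activity is low, through antioxidant response elements in their promoters.

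The promoters of 4 genes are shown because they stand at the ends of the range of change given below: Psmb5 and Psmd12 had the largest falls in the core and in the regulatory particle, and Psma5 and Psmd10 the smallest differences below 0. Each is the 250 bases before the annotated transcription start, 5′ to 3′ on the gene's strand, from RefSeq (GRCm38.p6), at chr14:54617996-54618245 on the minus strand for Psmb5, chr11:107479278-107479527 on the plus strand for Psmd12, chr3:108256676-108256925 on the plus strand for Psma5 and chrX:140956712-140956961 on the minus strand for Psmd10. Capitals mark matches on either strand to TGACNNNGC, the core letters of the antioxidant response element, or to CCAAT, the letters read by the factor NF-Y. The letters of these motifs cannot overlap in these windows, since no window of these genes held both.
Psmb5: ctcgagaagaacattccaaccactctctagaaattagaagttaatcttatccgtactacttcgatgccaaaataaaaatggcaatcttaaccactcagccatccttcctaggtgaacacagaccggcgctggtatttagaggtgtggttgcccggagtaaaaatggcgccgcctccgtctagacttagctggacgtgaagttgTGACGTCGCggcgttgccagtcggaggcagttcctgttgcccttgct
Psmd12: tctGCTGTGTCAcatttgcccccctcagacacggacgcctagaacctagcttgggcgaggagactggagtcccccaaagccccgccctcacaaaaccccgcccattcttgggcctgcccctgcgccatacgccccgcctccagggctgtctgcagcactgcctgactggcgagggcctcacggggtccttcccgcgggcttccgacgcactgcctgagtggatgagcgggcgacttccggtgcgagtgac
Psma5: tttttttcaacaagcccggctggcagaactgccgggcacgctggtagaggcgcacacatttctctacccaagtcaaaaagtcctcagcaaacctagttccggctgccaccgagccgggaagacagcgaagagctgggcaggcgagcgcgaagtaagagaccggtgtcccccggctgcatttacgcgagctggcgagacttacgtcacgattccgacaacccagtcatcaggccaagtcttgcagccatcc
Psmd10: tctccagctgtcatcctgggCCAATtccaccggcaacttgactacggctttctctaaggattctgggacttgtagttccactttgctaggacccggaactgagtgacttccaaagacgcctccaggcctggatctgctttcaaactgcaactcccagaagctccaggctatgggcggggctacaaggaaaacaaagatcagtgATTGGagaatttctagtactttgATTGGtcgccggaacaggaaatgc
The Psmb5 and Psmd12 windows each hold 1 match to TGACNNNGC, 47 bases before the start in Psmb5 and 247 bases before it in Psmd12. The Psma5 window holds neither motif, and the Psmd10 window holds CCAAT 3 times. RefSeq windows were found for 28 of the 35 genes, and some genes have several. TGACNNNGC was present in 2 of 12 core windows (Psmb5 and Psmb6) and in 3 of 18 regulatory windows (Psmc6, Psmd9 and Psmd12), which is 16.7% of each, against 10.2% of all 32851 windows in the table. CCAAT was present in 6 of 12 core windows (50%) and 5 of 18 regulatory windows (27.8%), against 33.8% of all windows. A match describes letters only, and the share of windows with a motif was not tested against the change in transcript level.

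Each array had 43379 non-control spots, of which 43 to 79 were flagged as outliers and removed, and no spot was saturated (0 on each array). The number of arrays limits the precision. Levels below are log2 values of the probe's signal over the array's 75th percentile, and differences are ligated minus contralateral on that scale, so that 0 is no difference and -1 is a level lower by a factor of 2. The 2 kidneys of a mouse were compared within the animal with limma, across 19597 genes, and a gene was called at a Benjamini-Hochberg adjusted p under 0.05. The contralateral kidney of mouse 512 stood apart from the other contralateral kidneys. Its summed tubule marker level (log2 of the sum over 6 genes) was 7.18, against 9.07 and 9.14 in the others and 7.26 to 7.48 in the ligated kidneys. Its summed fibroblast level (5 genes) was 5.21, against 3.20 and 3.81. Both arrays of mouse 512 lay on a slide of their own, so slide and mouse cannot be told apart.

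Most constitutive proteasome transcripts had a lower mean level in the ligated kidney, with differences from -1.14 for Psmb5 to -0.03 for Psmd10. Of the 35 genes, 20 were called lower and 0 higher. Over all genes tested, 14.7% were called lower and 16.0% higher. For 33 of the 35 genes all 3 ligated kidneys lay below all 3 contralateral kidneys, where 28.8% of all genes did so. The same 33 genes were lower within every animal, against 37.9% of all genes. The median difference of the 35 genes was -0.69, a level lower by a factor of 1.61, against a median of -0.01 over all genes. Taken animal by animal, this median was -0.65 (mouse 495), -0.88 (mouse 485) and -0.47 (mouse 512). The 2 genes outside the pattern were Psma8, a testis form of an alpha subunit, and Psmd10, an assembly chaperone. In a mixture of cell types, fewer cells of a type and less RNA per cell cannot be told apart.

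**Figure D1:**
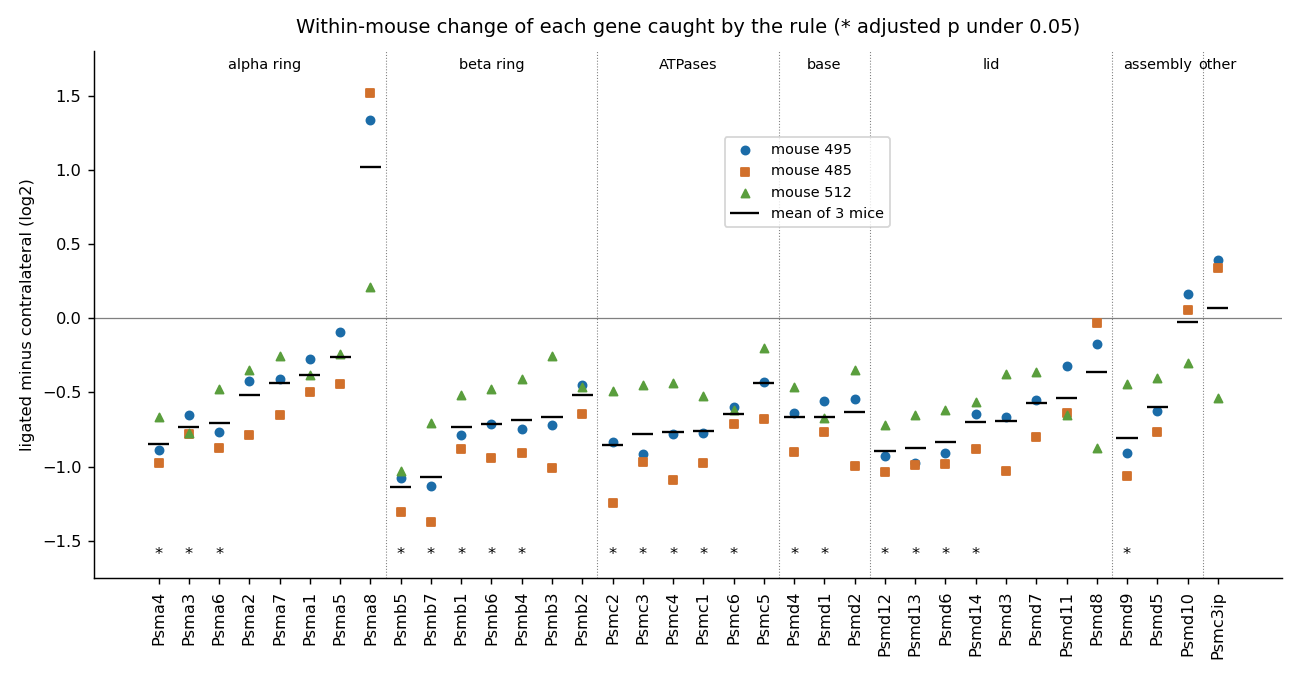
Difference in log2 level between the ligated and the contralateral kidney of each mouse (points) for the 36 genes taken by name, with the mean of the 3 mice (bars), grouped by role; asterisks mark an adjusted p under 0.05 in the limma fit. The means of all subunit and chaperone genes other than Psma8 lie below 0 on this scaling, from -1.14 for Psmb5 to -0.03 for Psmd10, while 23 of 35 lie below 0 after quantile normalization.

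Signal level moved with the difference, and these genes have bright probes. When all tested genes were split into 10 deciles by mean level, the median difference went from 0.71 in the dimmest decile to -0.59 in the brightest. In the brightest decile 37.1% of genes were called lower and 69.6% were lower in all 3 mice. That decile holds 23 of the 35 proteasome genes: all 23 were lower in all 3 mice, 13 were called, their median was -0.69, and 16 lay below the decile's own median. The next decile holds 6 of them, all below its median of -0.35, with 5 called lower where 25.6% of its genes were. Against the median of its own decile, Psmb7 was lower by 0.72 on the log2 scale, Psmd9 by 0.67, Psmd13 by 0.64 and Psmb5 by 0.55. The part of signal level in the proteasome result was not tested.

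**Figure D2:**
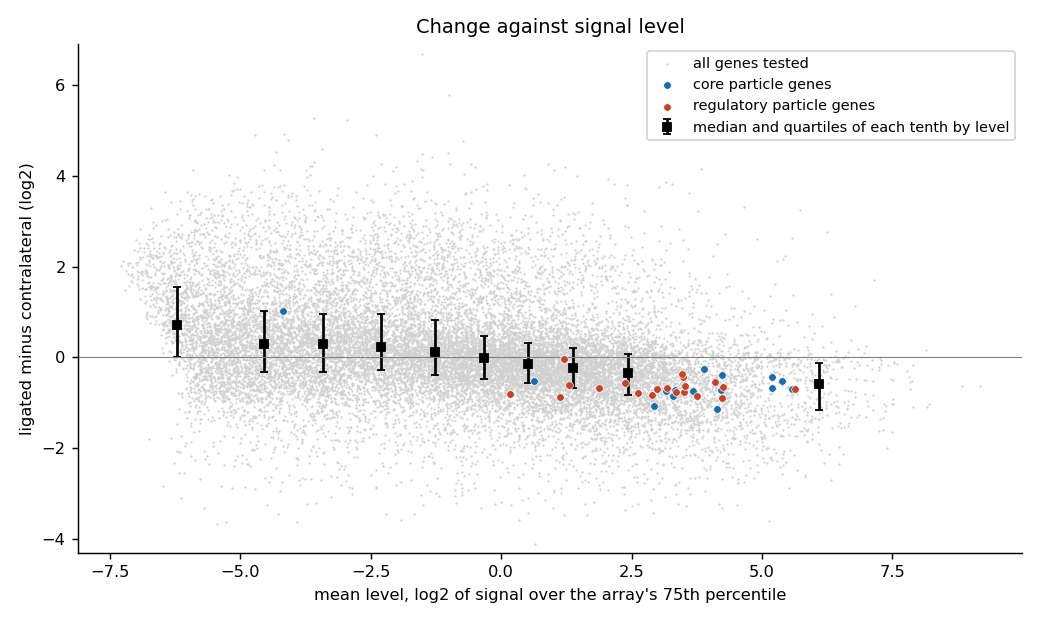
Difference in log2 level between ligated and contralateral kidneys (vertical axis, mean of 3 mice) against mean level (horizontal axis, log2 of signal over the array's 75th percentile) for all 19597 genes, with core and regulatory particle genes in colour; squares and bars give the median and quartiles of each decile of genes by level. The squares go from 0.71 at the left to -0.59 at the right, and 23 of the 35 proteasome genes fall in the rightmost decile.

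The scaling of the arrays changed how many proteasome genes were called. Quantile normalization, which gives all arrays the same distribution of signals, brought their median to -0.19 and left 3 of 35 called lower: Psmb7, Psmd9 and Psmd13. With it 11 of the 35 genes had a fitted value above 0 that had been below 0. Centring each array on its spike-in spots moved the median of all genes to 0.31 and that of the proteasome genes to -0.37. None of the 35 was called (0 of 15 core and 0 of 20 regulatory genes, with 1 and 0 at an unadjusted p under 0.05 in limma). That 1 core gene was Psma8, which was higher in the ligated kidneys, at 1.34. Centring on the array median moved them to -0.32 and -0.99, with 31 of 35 genes called lower, and the value table the authors deposited, which is scaled in this way, gave the same medians. Relative to all genes, the proteasome median lay lower by 0.67 when arrays were centred on the 75th percentile, the median or the spike-in spots. Each of these centrings subtracts 1 value per array, so this distance had to be the same under all of them. The proteasome median lay lower than that of all genes by 0.47 after normexp background correction and by 0.20 after quantile normalization.

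**Figure D3:**
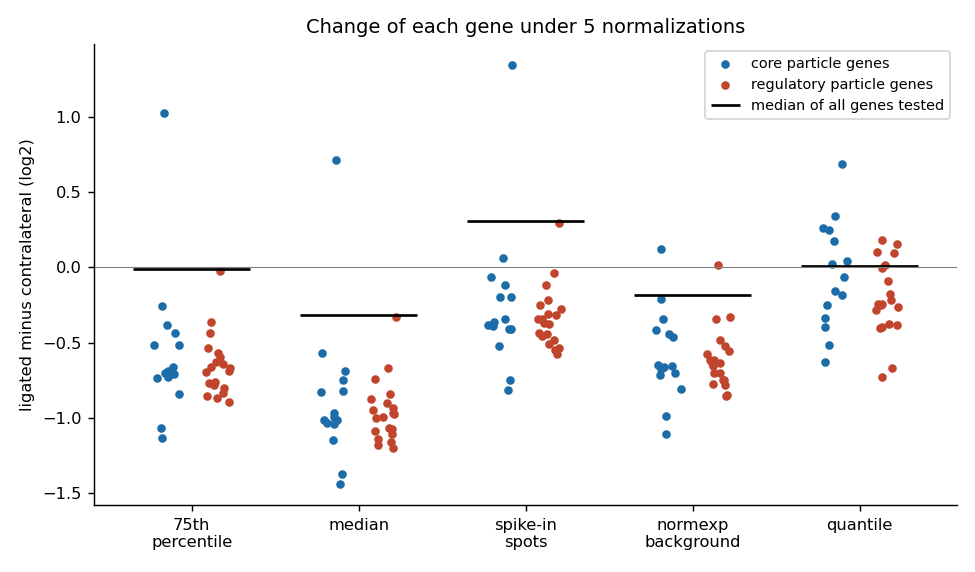
Difference in log2 level between ligated and contralateral kidneys (vertical axis) of each core and regulatory particle gene under 5 ways of scaling or background correction (horizontal axis); black bars give the median of all genes tested. The genes lie below the bar of all genes in most cases under each setting, but under quantile normalization 23 of 35 lie below 0.

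Among the 8 alpha ring genes, 3 were called lower and 0 higher, with a median difference of -0.48, and 7 were lower in all 3 mice. Class counts here and below stand beside 14.7% of all genes called lower and 37.1% in the brightest decile. Groups did not overlap, with ligated lower, for 28.8% of all genes. Psma1 to Psma7 fall in the brightest decile, where 69.6% were lower in all 3 mice and the median was -0.59. Of these, Psma1, Psma2, Psma5 and Psma7 lay above that median. Psma4 had the largest fall of the ring. Its contralateral levels were 3.82, 3.96 and 3.39 (here and below in the order of mice 495, 485 and 512), and its ligated levels 2.93, 2.98 and 2.72. The ligated kidneys were all below the contralateral ones, and the mean difference was -0.84 ± 0.15 (limma SE, n = 3 mice, limma adjusted p = 0.0322). Here and below, ± gives the SE of the limma fit, in which eBayes draws each gene's variance towards that of all genes. It is not the plain SE over the 3 mice. Psma3 had levels of 3.50, 3.70 and 3.37 in the contralateral and 2.85, 2.92 and 2.60 in the ligated kidneys. With no overlap between groups it fell by 0.73 ± 0.14 on the log2 scale (limma adjusted p = 0.0340). Psma6, the other called gene of the ring, fell by 0.71 (limma adjusted p = 0.0426).

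The remaining alpha genes apart from Psma8 had smaller differences. Psma2, Psma7 and Psma1 had differences of -0.52 ± 0.16, -0.44 ± 0.16 and -0.38 ± 0.14 and did not pass the test, although their groups did not overlap. Psma5 had the smallest difference. Its levels were 3.91, 4.11 and 4.02 in the contralateral and 3.82, 3.66 and 3.78 in the ligated kidneys. The groups were separated by only 0.09, and the difference of -0.26 ± 0.15 had a limma adjusted p of 0.236; it was 0.34 after quantile normalization. Under quantile normalization Psma1, Psma2 and Psma7 also had fitted values above 0 (0.26, 0.17 and 0.24).

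Psma8, which replaces Psma7 in the proteasome of male germ cells, went the other way. Its probe was dim: levels were -4.70, -5.52 and -3.88 in the contralateral and -3.36, -4.00 and -3.67 in the ligated kidneys. The ligated kidney was higher within each mouse, but the groups overlapped, because the contralateral kidney of mouse 512 was higher than the ligated kidney of mouse 485. The difference of 1.02 ± 0.32 did not pass the test (limma adjusted p = 0.0745). Without mouse 512 it was called higher, at 1.43. It was at 0.12 after normexp and at 0.69 after quantile normalization, and was called in neither setting.

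Of the 7 beta ring genes, 5 were called lower and 0 higher, with a median difference of -0.71, and all 7 were lower in all 3 mice with no overlap between groups. The 2 largest falls of all 35 genes were here, in catalytic subunits. Psmb5, the chymotrypsin-like subunit that the drug bortezomib blocks, was read by a probe at chr14:53568529-53568588 (mm8, minus strand). Its levels were 4.76, 4.84 and 4.54 in the contralateral kidneys and 3.69, 3.53 and 3.51 in the ligated kidneys of mice 495, 485 and 512. All ligated kidneys lay at least 0.85 below the lowest contralateral kidney, and the spread within a group (SD 0.16 and 0.10) was far smaller. Psmb5 fell by 1.14 ± 0.15 on the log2 scale, a factor of 2.20 (limma adjusted p = 0.0250).

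Psmb7, the trypsin-like subunit, had levels of 3.62, 3.79 and 2.98 in the contralateral and 2.49, 2.41 and 2.27 in the ligated kidneys (probe on the minus strand, with mm8 ends at chr2:38435455-38455874). The contralateral kidney of mouse 512 was the lowest of its group by more than 0.6, yet stayed above all ligated kidneys. The difference was -1.07 ± 0.19, a factor of 2.10 (limma adjusted p = 0.0326). Psmb6, the caspase-like subunit, had levels of 4.65, 4.70 and 4.38 against 3.94, 3.76 and 3.90 (probe at chr11:70343707-70343766, mm8, plus strand). Its ligated kidneys were again all below the contralateral ones, but the fall of 0.71 ± 0.16 was smaller than that of the other catalytic subunits (limma adjusted p = 0.0449); the difference between subunits was not tested.

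Of the 4 beta genes without catalytic activity, 2 were called lower. Psmb1 had levels of 4.12, 4.31 and 3.69 in the contralateral and 3.33, 3.42 and 3.17 in the ligated kidneys. The groups did not overlap, although the contralateral kidney of mouse 512 was low, and Psmb1 fell by 0.73 ± 0.16 (limma adjusted p = 0.0393). Psmb4 fell by 0.69 on the log2 scale, just inside the threshold (limma adjusted p = 0.0495). Psmb3, at -0.66 ± 0.20, did not pass (limma adjusted p = 0.0739). Its second, dimmer probe was called lower when probes were tested singly, at -0.77 (limma adjusted p = 0.0415). Psmb2 had the smallest difference of the ring, with levels of 0.81, 1.05 and 0.82 in the contralateral and 0.36, 0.40 and 0.35 in the ligated kidneys. Its groups did not overlap, and its difference of -0.52 ± 0.14 was outside the threshold (limma adjusted p = 0.0590). After quantile normalization Psmb3 and Psmb4 were at 0.040 and 0.019.

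The immunoproteasome counterparts rose in the same kidneys. Psmb8, which replaces Psmb5, had levels of 0.41, -0.25 and 2.18 in the contralateral and 3.52, 2.91 and 3.79 in the ligated kidneys, a rise of 2.63 ± 0.38 or 6.17-fold (limma adjusted p = 0.0276). Psmb9, which replaces Psmb6, went from 0.01, -0.55 and 1.44 to 2.59, 2.08 and 2.96, a rise of 2.24 ± 0.29 or 4.73-fold (limma adjusted p = 0.0244). Psmb10, which replaces Psmb7, went from 2.72, 2.19 and 4.39 to 4.97, 4.56 and 5.08, a rise of 1.77 ± 0.40 or 3.41-fold (limma adjusted p = 0.0436). For each of the 3 genes the ligated kidneys were all above the contralateral ones, and the contralateral kidney of mouse 512 was the highest of its group. All 3 rises were also called under quantile normalization, median centring, spike-in centring and normexp.

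Within each mouse, the change of the immunoproteasome gene exceeded that of the constitutive gene it replaces. For Psmb8 against Psmb5 the 2 changes differed by 4.18, 4.47 and 2.63 in mice 495, 485 and 512, with a mean of 3.76. For Psmb9 against Psmb6 they differed by 3.28, 3.57 and 2.00 (mean 2.95), and for Psmb10 against Psmb7 by 3.38, 3.75 and 1.40 (mean 2.84). The gap was smallest in mouse 512 for all 3 pairs. Both genes of a pair were read on the same array, so a shift of the whole array cancels in these values, while a shift that depends on signal level does not.

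**Figure D4:**
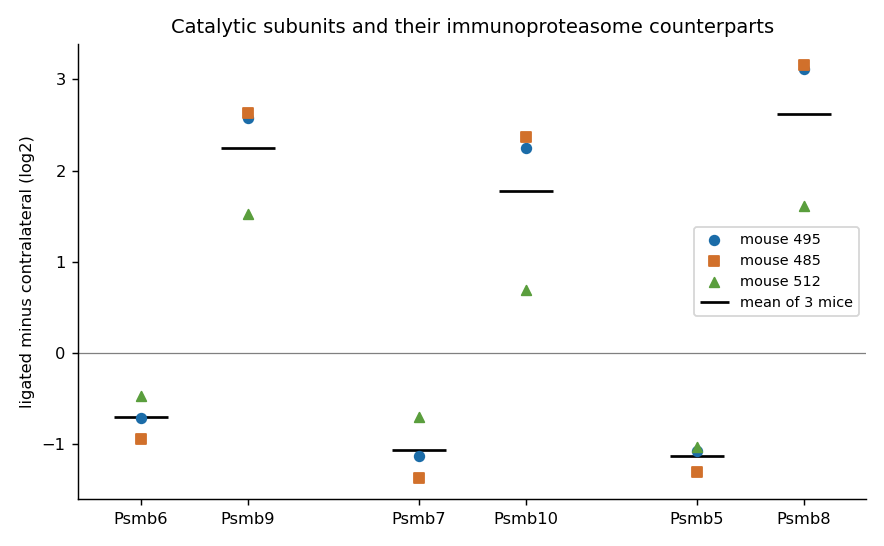
Difference in log2 level between the ligated and the contralateral kidney of each mouse (points; bars give the mean of 3 mice) for the catalytic subunits Psmb6, Psmb7 and Psmb5, each beside the immunoproteasome subunit that replaces it. Means run from -1.14 to -0.71 for the constitutive and from 1.77 to 2.63 for the immunoproteasome genes, and after quantile normalization Psmb5, Psmb6 and Psmb7 are at -0.52, -0.065 and -0.63, with only Psmb7 called.

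Of the 6 ATPase genes, 5 were called lower and 0 higher, with a median difference of -0.76, and all 6 were lower in all 3 mice. Psmc2 (Rpt1) had the largest fall. Its levels were 4.17, 4.58 and 3.80 in the contralateral and 3.34, 3.34 and 3.31 in the ligated kidneys. The 3 ligated kidneys differed by less than 0.03 (SD 0.02), while the contralateral kidneys spread over 0.78 (SD 0.39). The difference was -0.86 ± 0.20, a factor of 1.81 (limma adjusted p = 0.0469). Psmc3 had levels of 3.12, 3.25 and 2.69 against 2.20, 2.28 and 2.24, and Psmc4 of 3.81, 3.96 and 3.45 against 3.03, 2.87 and 3.02. In both genes the ligated kidneys were all lower and mouse 512 had the lowest contralateral level, and they fell by 0.78 ± 0.18 and 0.77 ± 0.19 (limma adjusted p = 0.0436 and 0.0495). Psmc1 fell by 0.76 and Psmc6 by 0.64 on the log2 scale (limma adjusted p = 0.0400 and 0.0396). Psmc5 had the smallest difference, with levels of 3.78, 3.76 and 3.55 against 3.35, 3.08 and 3.35. Its groups did not overlap, but the difference of -0.44 ± 0.17 did not pass (limma adjusted p = 0.110), and it was 0.10 after quantile normalization.

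The 3 base subunits without ATPase activity had differences within 0.04 of each other. Psmd1, a scaffold subunit, had levels of 2.19, 2.25 and 2.18 in the contralateral and 1.63, 1.48 and 1.51 in the ligated kidneys. Its contralateral kidneys were the most alike of the 3 genes (SD 0.04), mouse 512 included, and it fell by 0.66 ± 0.14 (limma adjusted p = 0.0396). Psmd4, a ubiquitin receptor, had levels of 3.56, 3.71 and 3.28 in the contralateral and 2.93, 2.81 and 2.81 in the ligated kidneys. Its groups did not overlap, and it fell by 0.67 ± 0.16 on the log2 scale (limma adjusted p = 0.0482). Psmd2, the partner scaffold of Psmd1, had levels of 3.84, 3.96 and 3.71 against 3.30, 2.97 and 3.36. Its groups did not overlap either, but its difference of -0.63 ± 0.19 did not pass (limma adjusted p = 0.0712).

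Of the 8 lid genes, 4 were called lower and 0 higher, with a median difference of -0.69, and in all 8 the groups did not overlap. Psmd12 had the largest fall of the regulatory particle. Its levels were 4.78, 4.93 and 4.34 in the contralateral and 3.85, 3.89 and 3.62 in the ligated kidneys (probe at chr11:107313739-107313798, mm8, plus strand). Ligated kidneys were all lower, by -0.90 ± 0.15 on average, a factor of 1.86 (limma adjusted p = 0.0309). Psmd13 had levels of 1.54, 1.83 and 1.33 against 0.57, 0.84 and 0.68. With non-overlapping groups it fell by 0.87 ± 0.16 (limma adjusted p = 0.0326), and it was among the 3 genes still called after quantile normalization. Psmd6 followed, with levels of 3.37, 3.49 and 3.09 against 2.46, 2.51 and 2.47. Its ligated kidneys were all lower and near each other (SD 0.03), and it fell by 0.83 ± 0.16 (limma adjusted p = 0.0337).

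Psmd14 (Rpn11), the deubiquitinase that cuts the chain from the substrate, fell by 0.70 on the log2 scale (limma adjusted p = 0.0401). Psmd3, Psmd7 and Psmd11 had differences of -0.69 ± 0.19, -0.57 ± 0.16 and -0.54 ± 0.15 and did not pass. Psmd8 had the smallest difference of the lid. Its levels were 3.56, 3.48 and 3.93 in the contralateral and 3.38, 3.45 and 3.05 in the ligated kidneys. Here the contralateral kidney of mouse 512 was the highest of the group, and most of the mean of -0.36 ± 0.23 came from that mouse, whose difference was -0.88 against -0.18 and -0.03 (limma adjusted p = 0.261). After quantile normalization Psmd8, Psmd11 and Psmd3 were at 0.16, 0.10 and 0.013.

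Psmd5, Psmd9 and Psmd10 encode chaperones that help assemble the base and are not part of the finished particle. Psmd9 was the called one. Its levels were 0.55, 0.93 and 0.22 in the contralateral and -0.35, -0.14 and -0.23 in the ligated kidneys. The groups did not overlap, and it fell by 0.80 ± 0.19, a factor of 1.75 (limma adjusted p = 0.0454). Psmd5 had levels of 1.65, 1.72 and 1.41 against 1.03, 0.96 and 1.01. All ligated kidneys were lower, and the difference of -0.60 ± 0.15 was just outside the threshold (limma adjusted p = 0.0532). Psmd10 (gankyrin), on the X chromosome, had levels of 1.02, 1.20 and 1.42 against 1.19, 1.26 and 1.12. Its groups overlapped: the ligated kidney was higher in mice 495 and 485 and lower in mouse 512, and the mean was -0.03 ± 0.17 (limma adjusted p = 0.910). The sign of Psmd10 depended on the setting, at 0.18 after quantile normalization, 0.30 with spike-in centring and 0.012 after normexp.

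The core and the regulatory particle had nearly the same median difference. Of the 15 core genes 8 were called lower, with a median difference of -0.69, and of the 20 regulatory genes 12, with a median of -0.68. Among all genes 14.7% were called lower, and 37.1% in the brightest decile. The core median minus the regulatory median was -0.01, and it was -0.07, 0.06 and 0.01 in mice 495, 485 and 512 (SD 0.07). These values lie on both sides of 0 and are far below the size of either median. Without Psma8 and the chaperones the medians were -0.70 for 14 core and -0.69 for 17 regulatory genes, with 8 and 11 called lower. After quantile normalization the core median lay above the regulatory median by 0.18, a shift larger than the spread between mice.

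**Figure D5:**
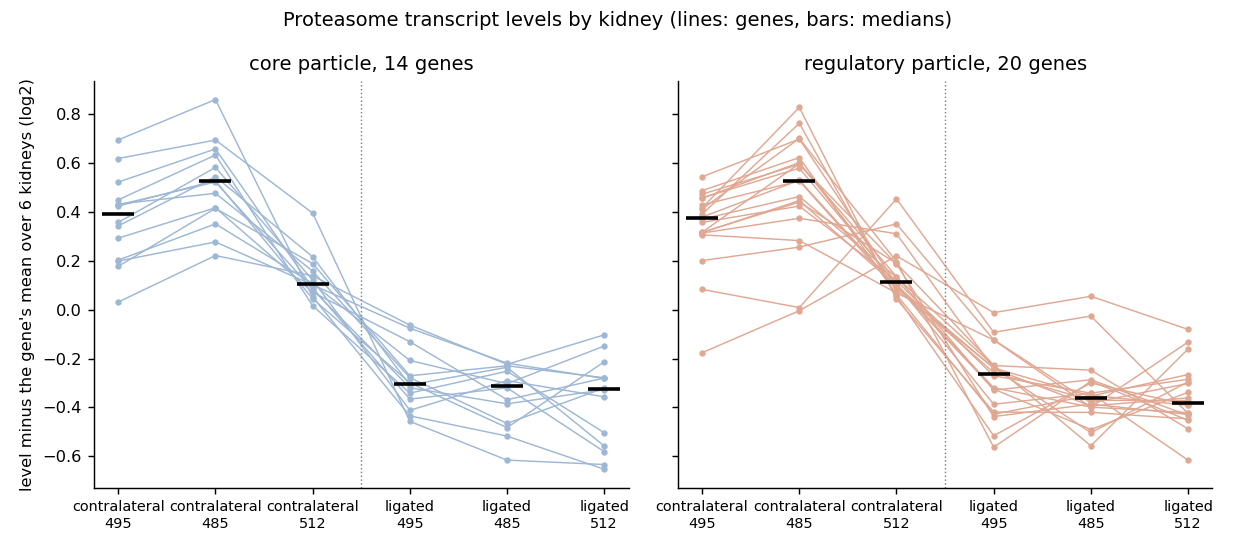
Level of each gene in each of the 6 kidneys, as log2 difference from that gene's mean over the 6 kidneys (vertical axis), for 14 core genes (Psma8 left out) and 20 regulatory genes; each line is a gene and black bars are medians. By the medians the ligated kidneys lie close together. The median of the contralateral kidney of mouse 512 lies between those of the other contralateral kidneys and those of the ligated ones. By gene, this kidney lies below both other contralateral kidneys for 12 of 14 core and 17 of 20 regulatory genes.

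The contralateral kidneys differed among themselves more than the ligated ones. The median SD of the 35 genes was 0.22 among contralateral and 0.10 among ligated kidneys, and it was larger among contralateral kidneys for 29 of the 35 genes, as for 75.5% of all genes. The contralateral kidney of mouse 512 lay below both others for 29 of the 35 genes (82.9%), where it did so for 44.2% of all genes. Its median distance to the mean of the others was -0.30, against -0.80 for the ligated kidney of that mouse. The difference between kidneys was accordingly smallest in mouse 512 for 26 of the 35 genes and most negative in mouse 485 for 31. When the contralateral kidney of mouse 512 alone was left out, in an unpaired fit, 13 of 15 core and 18 of 20 regulatory genes were called lower and Psma8 higher, while 11029 of all 19597 genes were called. With mouse 495 or mouse 485 left out, no gene at all was called (0 of 19597, with 4948 and 4944 at an unadjusted p under 0.05 in limma), and the medians of the 35 genes were -0.68 and -0.59. With both kidneys of mouse 512 left out, 12 core and 17 regulatory genes were called lower among 11015 calls, and the median was -0.77.

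Markers of other cell types moved with the same contrast. The summed level (log2 of the sum) of 5 macrophage genes was 1.69 to 2.44 in contralateral and 4.15 to 4.29 in ligated kidneys, with all 5 called higher. That of 5 fibroblast genes was 3.20 to 5.21 against 5.84 to 6.98, with 4 called higher. Of 6 tubule genes 3 were called lower, and their summed level was 7.18 to 9.14 against 7.26 to 7.48. Endothelial genes were called higher in 2 of 3 cases and T cell genes in 1 of 4. Podocyte, B cell and proliferation genes were called in 0 of 3, 0 of 3 and 0 of 4 cases. At an unadjusted p under 0.05 in limma these counts were 0, 1 and 0. All 3 B cell genes were still higher within every mouse, with no overlap between groups. Ligation went with a higher summed level of the 4 proliferation genes in mouse 495 (2.55 against -1.55) and mouse 485 (1.35 against -0.80). Mouse 512 went the other way, with 2.02 in its ligated and 2.34 in its other kidney. The tubule genes Umod and Lrp2 were at 7.11 and 6.31 on average in the contralateral kidneys. In that of mouse 512 they were lower, with Umod at 6.40 against 7.71 and 7.22, and Lrp2 at 4.79 against 7.07 and 7.08. The part of the cell make-up in the proteasome result was not tested.

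The 35 genes had 44 probes made to RefSeq messenger RNAs, and all 44 had a fitted difference below 0, with a median of -0.68. When all 29093 probes above background were tested singly, 14.9% were called lower, and 25 of these 44 were. The 3 Psmd12 probes were at -0.90, -0.68 and -0.43, the 2 Psmd9 probes at -0.80 and -0.49, and the 2 Psma4 probes at -0.84 and -0.79. Of 8 probes made to other transcript sequences 6 were tested, with a median of -0.06, among them the dim Psma8 probe at 1.02. The second probes of Psmc2 and Psmd4 and the dimmest Psmd7 probe were of this kind, at -0.10, -0.24 and -0.01. The brightest probes of these genes were at -0.86, -0.67 and -0.57. The other Psmd7 probe, made to a RefSeq messenger RNA, was at -0.46. The second Psmc6 probe, also of this kind, was at -0.83 and its brightest probe at -0.64. A Psmd14 probe of this kind (chr2:61516887-61516946, mm8, plus strand) was not well above background on any contralateral array and above it on the 3 ligated arrays, and no fold is given for it. It passed the filter only through the ligated arrays, is counted in the median of -0.06, and was the 1 probe of these genes called higher. One further probe each of Psma2 and Psmd11 was above background on no array. Whether a probe lies in an exon, intron or untranslated region was not annotated here.

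Genes that work with the proteasome were followed as lists, whose counts stand beside the 14.7% of all genes called lower and the 37.1% in the brightest decile. Of 5 genes for activators and an inhibitor, 2 were called higher and 3 lower. Psme1 and Psme2, the interferon-induced PA28 cap, rose by 0.75 ± 0.17 and 0.66 ± 0.16 (limma adjusted p = 0.0432 and 0.0464), but these calls were lost with median or spike-in centring. Psme4 (PA200) and Psme3 (PA28 gamma) fell by 0.97 and 0.88, and the inhibitor Psmf1 by 0.68 on the log2 scale (limma adjusted p = 0.0327, 0.0309 and 0.0412). After normexp Psmf1 was at -0.09 and not called, and after quantile normalization Psme4 was at -0.33 and not called. Of 6 genes for assembly factors, 4 were tested and 1 was called lower, Psmg1, at -0.89 ± 0.15 (limma adjusted p = 0.0307). Psmg4 and Paaf1 were not tested. The maturation factor Pomp was at -0.46 ± 0.16 and did not pass.

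Of 5 genes for associated subunits and deubiquitinases, the ubiquitin receptor Adrm1 was called lower, at -0.88 ± 0.17 (limma adjusted p = 0.0341), and the other 4 were not called. Of 8 genes for shuttles and the p97 unfoldase, 2 were called lower, the p97 cofactors Nploc4 and Ufd1, at -0.71 ± 0.16 and -0.70 ± 0.16 (limma adjusted p = 0.0417 and 0.0422). The calls of Adrm1, Nploc4 and Ufd1 were lost after quantile normalization, and with spike-in centring none of Psme3, Psme4, Psmf1, Psmg1, Adrm1, Nploc4, Ufd1 and Ngly1 stayed called lower.

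Among 4 regulators of proteasome genes, the transcription factor genes Nfe2l1 and Nfe2l2 were at 0.14 ± 0.14 and 0.29 ± 0.19, and the protease gene Ddi2, which cuts the Nfe2l1 protein, at -0.33 ± 0.14. None of these passed the test (limma adjusted p = 0.429, 0.286 and 0.134). Nfe2l1 was called higher after quantile normalization, at 0.66 (limma adjusted p = 0.0485), and was at -0.16 and not called with median centring. Ddi2 was called lower with median centring, at -0.64 (limma adjusted p = 0.0353), and was at 0.21 and not called after quantile normalization. Ngly1, which removes sugars from the Nfe2l1 protein before it becomes active, fell by 0.98 ± 0.21, a factor of 1.98 (limma adjusted p = 0.0401), with changes of -1.33, -1.08 and -0.54 in mice 495, 485 and 512. It was also called after quantile normalization. Psmc3ip, the gene that shares only its name with the family, was at 0.07 ± 0.25 (limma adjusted p = 0.846), and its sign changed between mice.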

How the data were processed

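Single-colour arrays of 6 kidneys were used. The authors deposited, per the file headers, background-subtracted processed signals of Agilent Feature Extraction (linear intensity, not scaled between arrays; version 10.5.1.1 per the file headers, 9.1 per the submitters' processing notes), raw spot intensities, spot flags with values of 0 or 1, and probe positions on mm8. The authors' deposited value table holds a linear ratio of processed signal to the array's median. Signals were log2-transformed and each array's 75th percentile was subtracted. Outlier spots were removed and spots of a probe averaged. Above background means that a share of 0.5 or more of the probe's spots carried the scanner's flag. limma 3.58.1 (R 4.3.3; two-sided tests, lmFit and eBayes) compared the kidneys with mouse as a block, on 2 residual degrees of freedom plus 2.05 from eBayes. The labels' mouse numbers give this pairing, and a mouse's 2 kidneys deviated together from their group means (r = 0.194, 0.481 and 0.271). Kidneys of different mice had r from -0.304 to 0.018. Deviations from a group mean sum to 0, so these values are tied to each other. For mouse 512, a shared slide cannot be told apart from a shared animal. The fit was tested on simulated data.

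The genes, their classes and the lists were chosen with earlier results of these data known. Named with values in each kidney were the 3 members of each class with the largest change, the member with the smallest, and the catalytic and immunoproteasome subunits. From each list, the called gene with the largest change is given by its difference. Other genes were chosen after their values were seen. Alternatives varied scaling, background correction, filter, probe choice, block and the mice included. Symbols of 24496 probes were updated by RefSeq accession. One list of pathway genes is not reported here.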

Additional observations from a re-analysis of the deposited data

How the results depend on the processing

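Without the replicate block 10 core and 17 regulatory genes were called lower, and 5538 genes in all. Leaving out a mouse in turn gave 0 to 13 core genes (12 lower and Psma8 higher at most), 0 to 17 regulatory genes and 0 to 11015 of all genes. Leaving out only the contralateral kidney of mouse 512, chosen after seeing the data, gave 14 core, 18 regulatory and 11029 genes in all, with Psmd10 at 0.077. Quantile normalization gave 1 core and 2 regulatory genes and a core minus regulatory difference of 0.18. Its values of opposite sign were 0.26 (Psma1), 0.17 (Psma2), 0.34 (Psma5), 0.24 (Psma7), 0.040 (Psmb3), 0.019 (Psmb4), 0.10 (Psmc5), 0.013 (Psmd3), 0.16 (Psmd8), 0.10 (Psmd11), 0.18 (Psmd10) and -0.032 (Psmc3ip). Median centring and the deposited table each gave 13 core genes called, and Psmc3ip at -0.24. Spike-in centring gave 0 core, 0 regulatory and 3072 genes in all (1, 0 and 5859 at an unadjusted limma p under 0.05), with Psma5 at 0.062 and Psmd10 at 0.30. The 1 core gene at that unadjusted p was Psma8, at 1.34. The split of all calls was 2423 higher to 649 lower with spike-in centring and 2561 to 5933 with median centring, against 3128 to 2879. Testing dim probes too gave 1 core, 0 regulatory and 2637 genes in all (11, 17 and 11043 at an unadjusted p under 0.05). Psmd10 was at 0.012 after normexp. Over the mice left out in turn, Psmd10 ranged from -0.12 to 0.11 and Psmc3ip from -0.10 to 0.37. With the mean of a gene's probes, 8 core and 8 regulatory genes were called. Counts of core and regulatory genes stayed within 1.5 times under normexp, the stricter filter, the slide block and the intensity trend. The cause of these changes was not tested.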
